A study of Mus musculus with 4 samples.

Results

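Bulge keratinocytes of the hair follicle were selected on the measured transcripts of 5 marker genes in Xenium in situ data of unwounded mouse dorsal skin. Xenium decodes single RNA molecules where they lie in the tissue, for a fixed panel of genes, and assigns each molecule to a segmented cell. A cell was taken as a bulge cell if it held at least 10 transcripts, at least 1 of Cd34, at least 2 of Krt15 and at least 1 of Lhx2, Lgr5 and Sox9 together. The rule was met by 1552 of 240576 cells with at least 10 transcripts on the 2 slides of unwounded skin, 1170 of them in males and 382 in females, while the 4 slides of the series held 426792 such cells in all.

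The bulge is the part of the outer root sheath in which hair follicle stem cells rest between growth phases. Its cells carry the surface glycoprotein CD34 and the basal keratin KRT15, and depend on the transcription factors LHX2 and SOX9, while LGR5 marks the lower bulge and the hair germ beneath it. In the resting phase, telogen, BMP signals hold these cells quiescent. Hair growth, anagen, begins when Wnt and Hedgehog signals outweigh BMP, and SHH made by the growing matrix below then reaches the bulge cells through the receptor PTCH1.

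The mice carried TRE-Pitx1 and Krt5-rtTA, so that the transgene can be induced in any cell in which the Krt5 promoter is active, the bulge included. Control littermates with the same transgenes received plain chow (the vehicle of the labels) and PITX1+ mice received doxycycline chow for several weeks, starting in telogen, and the hypertrophied follicles of PITX1+ skin were described by the study as held in anagen. Dorsal skin was formalin-fixed and cut onto 1 slide for males and 1 for females, so that slide and sex cannot be told apart. The 7 sections were separated by position, and the first section of the male slide and the first and second of the female slide were taken as Control (n = 3), the others as PITX1+ (n = 4). The study's legend counts as many Control skins and PITX1+ mice as there are sections here, but the labels give the conditions of a slide and not of a section or the animal behind it. The p-values therefore measure the spread between sections, and no age was given.

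Depth, the number of transcripts per cell, differed between the conditions. The sections held 474847 to 749248 transcripts in Control and 2832562 to 5581930 in PITX1+ skin. The median bulge cell held 38 to 43 transcripts in Control and 87 to 124 in PITX1+ sections, and the 386 Control bulge cells gave 17570 transcripts against 148371 from 1166 PITX1+ cells. The male and female slides shared 7 cell identifiers, and each slide was handled on its own. In buccal mucosa, which has no hair follicles, 4 of 62782 cells met the rule, or 0.00637% (95% exact interval 0.00174 to 0.0163, for counting error only), at a median of 86 transcripts. Pitx1 itself was read in 0%, 1.55% and 1.52% of bulge cells of the Control sections and in 6.11%, 7.29%, 0% and 0.690% of those of the PITX1+ sections, the male sections being named first here and below. It came to 3 transcripts in Control and 71 in PITX1+ cells, a ratio of 2.51 per transcript read with a 95% counting interval of 0.826 to 12.5. Pitx1 was too sparse in the bulge for the gene test. In Krt5 cells (defined below), where more were read, Pitx1 stood at 38.2 per 1000000 transcripts in the male Control section and 841 and 426 in the male PITX1+ sections, but at 74.3 and 42.5 in the female Control and 36.5 and 77.0 in the female PITX1+ sections. The 2 female sections taken as PITX1+ by their position therefore overlapped the female Control sections in Pitx1, while in total transcripts and in cells with Shh (given below) they lay with the male PITX1+ sections and apart from all Control sections. For all 7 sections the number of cells with at least 3 genes lay close to a cell total listed in the study's supplement for a sample of the assigned condition and far from those of the other condition.

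The genes of the rule are given as a description, since the rule set their lowest values. Sox9 was found in 78.9% of bulge cells, Lgr5 in 51.9% and Lhx2 in 39.7%, and 17.3% held all 3. These shares pool both conditions. Lgr5 was found in 36.1%, 19.4% and 22.7% of cells in Control and 65.9%, 58.2%, 52.4% and 48.3% in PITX1+ sections. All 3 genes were held by 5.76%, 0.775% and 3.03% of cells in Control and 21.8%, 27.4%, 7.14% and 6.21% in PITX1+ sections. Whether the cells that met the rule came from the same part of the follicle in both conditions was not tested. Most cells were close to the threshold. Cd34 was present as exactly 1 transcript in 75.7% of them, Krt15 as exactly 2 in 22.4%, and the cell richest in Krt15 held 51. Just outside the rule lay 473 cells that held a single Krt15 transcript, 623 that lacked Lhx2, Lgr5 and Sox9, and 11057 that lacked only Cd34. At least 1 Cd34 transcript lay over the nucleus in 65.3% of bulge cells. By section this was 75.9%, 72.1% and 72.7% in Control and 61.1%, 59.5%, 73.8% and 73.1% in PITX1+ skin. Whether Cd34 came from these cells or from cells beside them was not tested.

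As a share of all transcripts of the bulge cells, Krt15 stood at 112 ± 12.8 per 1000 in Control (SD, n = 3) and 39.7 ± 9.97 per 1000 in PITX1+ sections (n = 4). Cd34 stood at 27.8 ± 5.12 and 10.7 ± 0.822 per 1000, and Sox9 at 28.1 ± 5.75 and 14.2 ± 2.33 per 1000. The 3 genes were lower in every PITX1+ section than in every Control section. Lhx2 reached 6.32 ± 1.34 and 4.11 ± 1.76 per 1000 and Lgr5 7.05 ± 3.90 and 8.40 ± 2.87 per 1000, and the sections of the 2 conditions overlapped for both. A cell with more transcripts meets a fixed count more easily, and the part of depth in these differences was not tested by them.

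Genes outside the rule show what kind of cell it caught. Krt17, a keratin of follicle and activated keratinocytes, was found in 93.0% of bulge cells and Krt5, the keratin of basal cells, in 92.7%. Trp63, the master regulator of stratified epithelia, was found in 78.5%, and Col17a1, the hemidesmosomal collagen, in 65.9%. The integrin gene Itga6, also of basal cells, was found in 24.3%, and in 14.1%, 8.53% and 12.1% in the Control sections. These shares pool both conditions. Trp63 was held by 55.0%, 38.0% and 45.5% of cells in Control and 83.4% to 90.4% in PITX1+ sections. Transcripts of other cell types were also present. At least 2 fibroblast transcripts were held by 14.1% to 17.8% of the cells in Control sections and 38.1% to 55.5% in PITX1+ sections, and at least 2 sebaceous transcripts by 1.55% to 6.06% and 33.3% to 37.9%. A fixed count is met more easily in the deeper PITX1+ cells, and per 1000 transcripts the fibroblast genes overlapped between the conditions (19.6 to 24.1 against 19.97 to 48.01). Immune transcripts reached 2 in at most 14.3% of cells in any section, and the melanocyte gene Mlana in none. The suprabasal genes (Krt1, Krt77, Lor, Ivl, Flg, Flg2 and Hrnr) together made up 0.299 per 1000 transcripts in the male Control section but 74.5 per 1000 in the richest female Control section, and 0.406 to 4.94 per 1000 in PITX1+ sections. The bulge cells of the female Control sections therefore held more transcripts of differentiated epidermis than those of the male section.

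In the median section, and again as a description, the 10 genes outside the rule with the largest ratio to Krt5 cells (26429 cells with at least 2 Krt5 transcripts and none of Cd34, Lhx2, Lgr5, Sox9 or Shh) were Wfdc3, Timp3, Cxcl12, Krt75, Igfbp4, Postn, Thbs1, Ptn, Col14a1 and Kcna1. Wfdc3, which encodes a secreted WAP-domain protein, led with a ratio of 11.4. The matrix metalloproteinase inhibitor Timp3 followed at 6.91, the chemokine Cxcl12 at 6.25 and Krt75, the keratin of the companion layer of the follicle, at 5.64. Of the 10 genes, 8 were above Krt5 cells in all 7 sections, while Postn and Kcna1 were above them in 5, and Kcna1 rested on 25 transcripts. Over all 323 genes outside the rule, 13.3% were above Krt5 cells in all 7 sections. The class nearest to the bulge cells, the 11057 Krt15 cells without Cd34, differed less. Against that class the median ratio was 1.13 for Wfdc3, 0.924 for Timp3 and 1.499 for Cxcl12. It also held transcripts of differentiated epidermis in the female Control sections. Krt77 stood there at 43369 and 39696 per 1000000 transcripts outside the rule, against 3023 in the male Control and 178 to 906 in PITX1+ sections. The part of such transcripts in the ratios to that class and in its changes was not tested. Of the 323 genes, 4.95% were above that class in all 7 sections, Cxcl12 and Igfbp4 among them. With all sections pooled, the fibroblast gene Col1a1 stood at 15252 per 1000000 transcripts in bulge cells and 10909 in that class. It was lower in bulge cells in the second female Control and the first female PITX1+ section. Pdgfra was higher in bulge cells in all 7 sections, at 1488 against 985 pooled. The part of fibroblast transcripts in the ratios to either class was not tested.

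Many bulge cells lay in small groups. In the male Control section 87.4% of them had another bulge cell within 20 µm, and 79.1% lay in groups of at least 3, the largest of 23 cells. In the female Control sections 56.6% and 43.9% had such a neighbour, and 30.2% and 22.7% lay in groups of at least 3. In the PITX1+ sections 41.3% and 67.8% in males and 0% and 8.97% in females lay in such groups. The shares with a neighbour were 63.1% and 78.5% in the male and 9.52% and 25.5% in the female PITX1+ sections, where the nearest bulge cell was a median of 92.5 and 41.2 µm away. The mean was 62.7% ± 22.4 in Control and 44.2% ± 32.1 in PITX1+ sections, a difference of -18.5 points that did not exceed the spread between sections (two-sided exact permutation test, p = 0.457, and 0.686 after adjustment over the 6 spatial measures). Within each slide, every PITX1+ section was below the Control sections, and the test did not account for the slide.

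**Figure D1:**
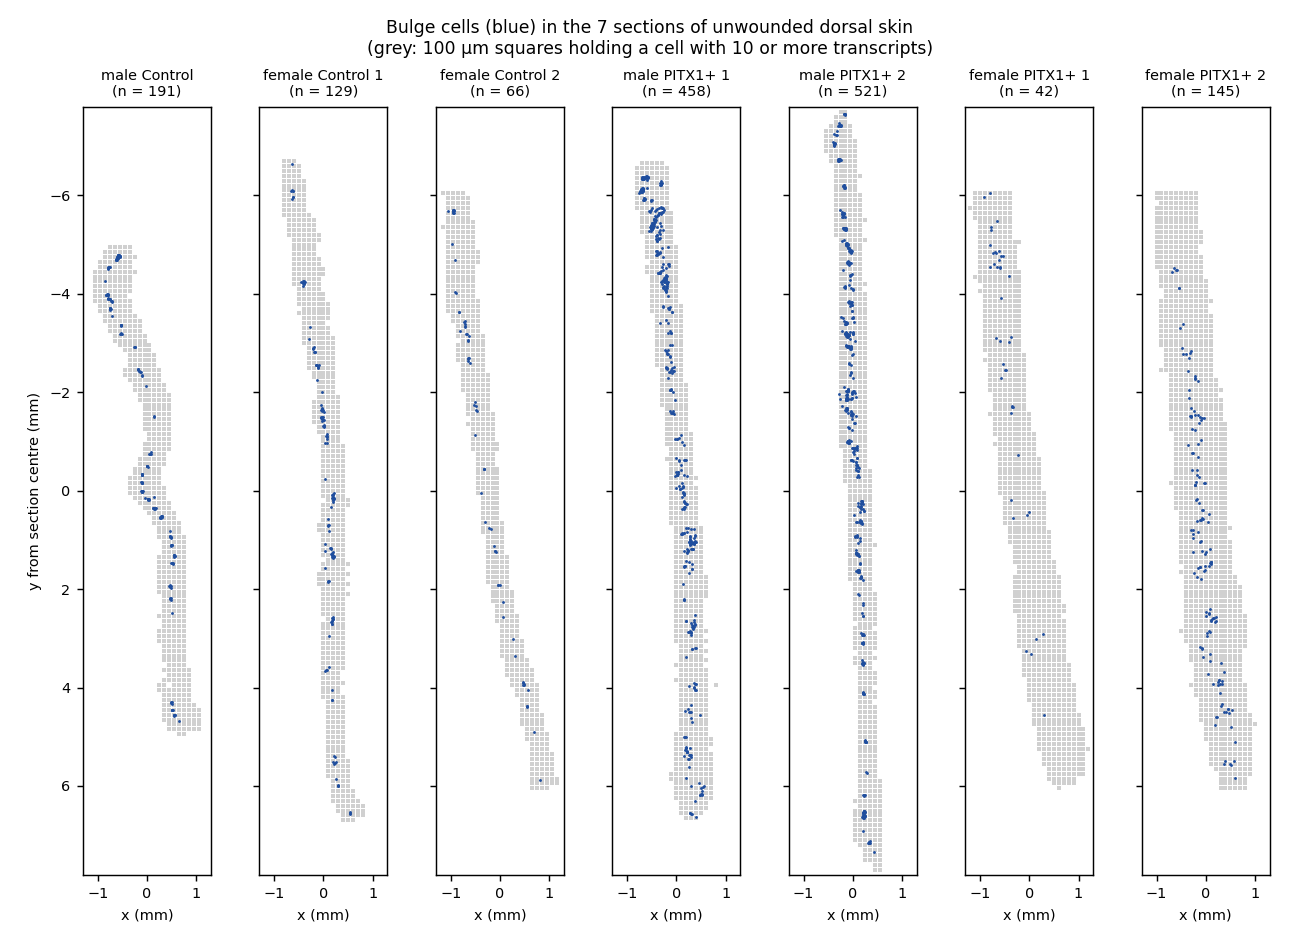
Positions of bulge cells (blue points) in the 7 sections, drawn to scale in mm from the centre of each section over the 100 µm squares that held a cell with at least 10 transcripts (grey). The male sections hold 191 (Control), 458 and 521 cells (PITX1+), in groups along the strip. The female PITX1+ sections hold 42 and 145 cells, which lie more singly.

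The share of bulge cells did not separate the conditions. It was 1.51% of cells in the male Control section, 0.744% and 0.560% in the female Control sections, 1.20% and 1.86% in the male PITX1+ sections, and 0.0734% and 0.193% in the female PITX1+ sections. The means of 0.937% ± 0.501 and 0.831% ± 0.851 differed by -0.106 points (exact permutation test, p = 0.8, where 3 against 4 sections cannot give less than 0.0571). The female PITX1+ sections lay below all Control sections and the male ones did not. Fewer bulge cells and less of the marker RNA per cell cannot be told apart by this count.

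This comparison depended on how depth was handled. When cells under 20 transcripts were left out, the difference was -0.332 points (exact permutation test, p = 0.571). When each cell was reduced at random to 20 transcripts before the rule was applied as well, 52, 39 and 21 bulge cells remained in the Control sections and 20, 23, 1 and 6 in the PITX1+ sections. Their shares were 0.626%, 0.297% and 0.248% in Control and 0.0595%, 0.0875%, 0.0023% and 0.0088% in PITX1+ skin. Every PITX1+ section was then below every Control section, by a mean of -0.351 points, at the smallest p the design allows (exact permutation test, p = 0.0571). At a fixed depth the rule reads the share of RNA from its own genes. That share was 16.5% to 19.2% in Control and 5.61% to 9.45% in PITX1+ bulge cells before thinning. The test therefore draws on the values of the rule and cannot tell fewer bulge cells from less marker RNA per cell. It also rests on 1 random draw. Per unit of tissue, bulge cells numbered 35.5 per mm2 in the male Control section, 21.4 and 12.3 in the female Control sections, 60.8 and 74.3 in the male and 4.32 and 12.3 in the female PITX1+ sections (difference 14.8, exact permutation test, p = 0.571). This difference ranged from 2.71 without the second male to 26.0 without the first female PITX1+ section. With cells thinned to 20 transcripts the difference in density turned to -5.77 per mm2 (p = 0.0571 in the same exact test), under the same limits.

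**Figure D2:**
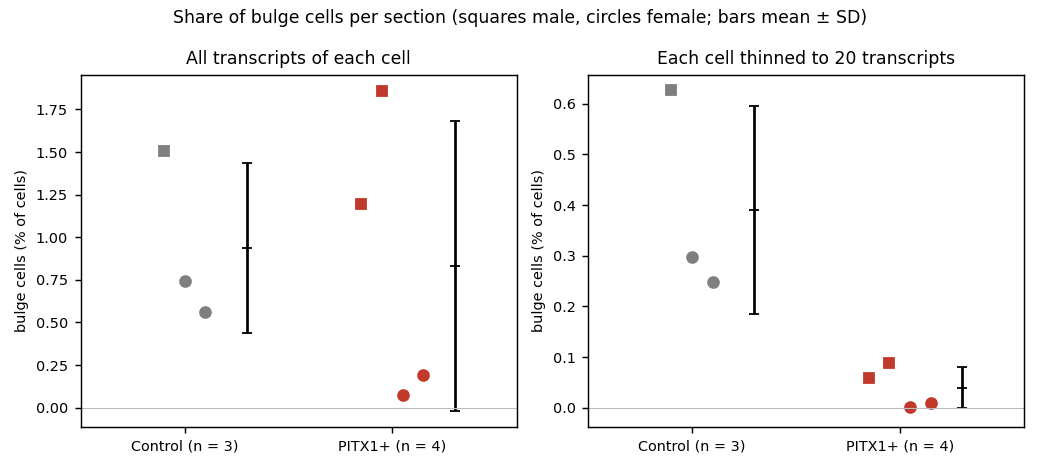
Bulge cells as a percentage of cells per section, with all transcripts of each cell (left) and after thinning each cell to 20 transcripts (right). Squares are male and circles female sections, and bars give the mean and SD of 3 Control and 4 PITX1+ sections. With all transcripts the conditions overlap, and after thinning the 4 PITX1+ sections, at 0.0023% to 0.0875%, lie below the 3 Control sections, at 0.248% to 0.626%.

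The share of cells with Krt15 and a progenitor gene that also held Cd34 is given as a description. On the male slide 30.1% of them held Cd34 in the Control section and 13.5% and 14.8% in the PITX1+ sections. On the female slide the values were 11.8% and 7.67% in Control and 6.79% and 5.82% in PITX1+ sections. These shares use the genes of the rule and were not tested, and depth bears on both their parts. The median area of a bulge cell was 48.9, 67.9 and 61.3 µm2 in Control and 69.4, 60.8, 91.4 and 81.2 µm2 in PITX1+ sections, a difference of 16.3 µm2 (exact permutation test over sections of both slides, p = 0.171). Within each slide both PITX1+ sections were above the Control sections.

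Gene expression of the bulge cells was compared on the sums of each section, over the 323 genes outside the rule. Of these, 141 passed the filter on low counts, and 50 differed between PITX1+ and Control sections, which is 35.5% of those tested (edgeR quasi-likelihood test, Benjamini-Hochberg adjusted p under 0.05). There were 26 genes higher (18.4%) and 24 lower (17.0%) in PITX1+ bulge cells. With library size in place of TMM scaling, the log2 differences rose by a median of 0.26 and the split became 34 higher and 18 lower, and without the filter on low counts it became 41 and 13 at a median shift of 0.59. The directions below therefore hold relative to the median gene, and all 50 genes kept their sign under both. The number of calls without the slide as a covariate was 17, all of them among the 50. Whether the rule caught cells of the same part of the follicle in both conditions was not tested. Changes within a cell and changes in which cells met the rule therefore cannot be told apart. Values below are transcripts per 1000 transcripts of the 323 genes.

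The genes that fell most in PITX1+ bulge cells included Wfdc3, which led the ratios to Krt5 cells, Bmp2, Col17a1, Postn and Tgfbi. Other genes of matrix and adhesion rose, Lama5 and Itgb1 among them (given below). Wfdc3 stood at 14.1 per 1000 in the male Control section, 14.3 and 7.89 in the female Control sections, 0.734 and 2.96 in the male and 0.227 and 0.634 in the female PITX1+ sections. All 4 PITX1+ sections lay below every Control section, and the log2 difference was -3.84 (SE 0.56, edgeR adjusted p = 0.0011). Bmp2, the secreted ligand that keeps follicle stem cells at rest, fell from 11.1, 4.65 and 3.15 per 1000 to 0.696, 2.12, 0 and 0.713 per 1000. Its log2 difference was -3.24 (SE 0.52, edgeR adjusted p = 0.0011), and the call was lost without the male Control section, which had the highest level (log2 difference -3.00, edgeR adjusted p = 0.0721).

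Col17a1, which anchors basal keratinocytes to the basement membrane, was among the most abundant transcripts of the bulge. It stood at 54.2, 44.2 and 72.2 per 1000 in Control and at 12.7, 19.7, 12.3 and 7.68 per 1000 in PITX1+ sections. The ranges did not overlap, and the log2 difference was -2.49 (SE 0.31, edgeR adjusted p = 0.0006). The matricellular protein gene Postn stood at 36.8, 21.1 and 16.2 per 1000 and fell to 5.97, 10.95, 1.36 and 2.93 per 1000 (log2 difference -2.86, SE 0.35, edgeR adjusted p = 0.00059). Tgfbi, another gene of a matrix adhesion protein, was 13.4 ± 1.58 per 1000 in Control and 3.29 ± 1.65 per 1000 in PITX1+ skin (log2 difference -2.35, SE 0.35).

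Ptn, which encodes the growth factor pleiotrophin, was 15.5 ± 3.64 per 1000 in Control and 4.62 ± 3.98 per 1000 in PITX1+ sections, again without overlap. Fcgbp, for an IgG Fc-binding mucus protein, differed between the Control sections themselves, at 7.93 per 1000 in the male and 33.1 and 34.7 per 1000 in the female sections. It was 0.773 and 1.56 per 1000 in the male and 8.17 and 2.54 per 1000 in the female PITX1+ sections, below the Controls of the same slide in each case (log2 difference -3.02, SE 0.40, edgeR adjusted p = 0.00074). The remaining 3 were Serpinb2, an inhibitor of plasminogen activators (log2 difference -3.22), Arg1, the arginase gene (-2.47), and Klf4, a transcription factor of keratinocyte differentiation (-2.36). Arg1 lost its call without the male Control section (log2 difference -1.89, edgeR adjusted p = 0.0556). Of the 10 genes, 8 had all 4 PITX1+ sections below every Control section, against 9.93% of the 141 genes tested. With the rule applied to cells thinned to 20 transcripts, which leaves fewer cells, the log2 differences were smaller, at -1.92 for Wfdc3, -1.61 for Ptn, -1.15 for Col17a1 and -1.14 for Postn, which kept their calls, and at -1.28 for Fcgbp and -0.76 for Tgfbi, which lost them. The 26 genes of that fit shifted upward by a median of 0.78 on the log2 scale, so these sizes are not directly comparable with the main ones.

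The genes that rose most included Scd2, Angptl4, Slpi and Acta2. Scd2, a fatty acid desaturase gene of sebaceous and other lipid-making cells, stood at 0.599, 1.16 and 1.97 per 1000 in Control and 10.4, 10.5, 9.99 and 11.7 per 1000 in PITX1+ sections (log2 difference 3.07, SE 0.37, edgeR adjusted p = 0.00059). Angptl4, for a secreted inhibitor of lipoprotein lipase, rose from 0.373 ± 0.521 to 3.95 ± 1.28 per 1000 (log2 difference 3.05, SE 0.58). All PITX1+ sections were above all Control sections for both genes. Lbh, a transcription cofactor gene, was 4.21 ± 1.91 per 1000 in Control, 10.3 and 8.54 per 1000 in the male and 37.0 and 34.8 per 1000 in the female PITX1+ sections (log2 difference 2.28, SE 0.26, edgeR adjusted p = 0.00059).

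Slpi, the gene of an antiprotease made by mucosal and wounded epithelia, had no transcript among 14379 in Control bulge cells and 340 among 135425 in PITX1+ bulge cells. Taking 3 transcripts over the Control group as its floor, it was at least 12-fold higher (edgeR adjusted p = 0.0215). It reached 4.37, 0.855, 7.26 and 1.98 per 1000 in the 4 PITX1+ sections, and the call was lost without the male Control section (edgeR adjusted p = 0.0792). Acta2, the gene of smooth muscle actin, rested on 1 Control and 468 PITX1+ transcripts, a ratio of 49.7 (95% counting interval 8.88 to 1970, edgeR adjusted p = 0.0011). The other members of the muscle and pericyte list were too sparse to be tested and had lower means in PITX1+ cells, at 1.18 and 0.451 per 1000 for Des, 0.913 and 0.549 for Myh11 and 0.519 and 0.297 for Cnn1. Whether Acta2 came from the bulge cells or from muscle cells beside them was not tested.

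Dsg2, a desmosomal cadherin gene prominent in oral epithelium, rose from 0.429 ± 0.450 to 3.61 ± 1.45 per 1000 (log2 difference 2.43, SE 0.50, edgeR adjusted p = 0.0040). Igfbp2, for a binding protein of insulin-like growth factors, stood at 7.49 and 8.24 per 1000 in the female PITX1+ sections but at 1.31 and 1.20 in the male ones, against 0.299 in the male and 1.55 and 0.789 in the female Controls (log2 difference 2.26, SE 0.39). Hist1h1b, a linker histone gene read in S phase, showed the opposite order, at 13.99 and 12.7 per 1000 in the male and 1.36 and 7.61 in the female PITX1+ sections, and was 1.42 ± 0.610 per 1000 in Control (log2 difference 2.25, SE 0.70, edgeR adjusted p = 0.0319). It lost its call in 5 of 7 fits that left out a section, at most with an adjusted p of 0.201 without the male Control section. Anxa3, an annexin gene (log2 difference 2.42), lost it in 3 of 5 such fits. Of the 9 genes described, 7 had all 4 PITX1+ sections above every Control section, against 22.7% of the 141 genes tested. A test of whether the change itself differed between the slides, and so between the sexes, called 0 of the 141 genes by edgeR, with 17 at an unadjusted p under 0.05.

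**Figure D3:**
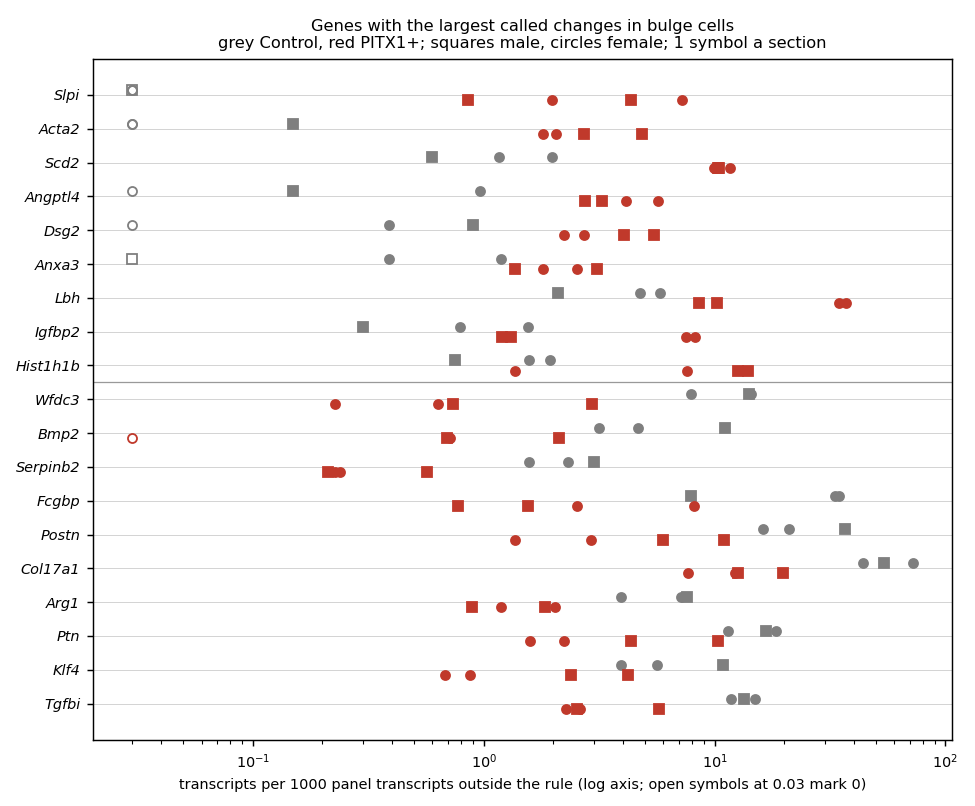
Level of 9 of the genes that rose most (top) and the 10 that fell most (bottom) in bulge cells, in transcripts per 1000 transcripts of genes outside the rule on a log axis, with 1 symbol per section (grey Control, red PITX1+, squares male, circles female) and open symbols at the left for sections without a transcript. For 15 of the 19 genes the red and grey symbols do not overlap, and for Lbh and Igfbp2 the female PITX1+ sections lie above the male ones.

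Ptch1, the gene of a Hedgehog receptor and itself a target of the pathway, stood at 3.14, 4.26 and 5.13 per 1000 in Control and rose to 5.57 and 6.77 in the male and 12.7 and 25.4 in the female PITX1+ sections (log2 difference 1.36, SE 0.36, edgeR adjusted p = 0.0173). All PITX1+ sections were above all Control sections. Ptch1 lost its call without either female Control section (highest edgeR adjusted p = 0.0737). Shh, the ligand, came to 2 and 12 transcripts in the bulge cells of the 2 conditions and was not tested.

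Cells with at least 3 Shh transcripts, the source of the ligand in the tissue, were absent among the 41797 Control cells, which allows a share of up to 0.00718%, and numbered 570, 526, 122 and 1130 in the PITX1+ sections. Of the bulge cells, 78.4% and 65.5% in the male and 40.5% and 81.4% in the female PITX1+ sections lay within 200 µm of such a cell, at median distances of 125, 143, 264 and 110 µm. The share was 0 in each Control section because no such cell was found there, at a median depth of 26 to 32 transcripts per cell against 37 to 87 in PITX1+ sections, so a test of the difference would say nothing of where bulge cells lie. In the same sections 81.8%, 75.5%, 32.1% and 80.6% of Krt15 cells without Cd34 and 54.8%, 45.5%, 10.5% and 39.5% of Krt5 cells were as close. With a single Shh transcript as the criterion 40.3%, 100% and 83.3% of Control bulge cells qualified, and the difference was 20.1 points (exact permutation test, p = 0.514).

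Of the 7 other stem and progenitor genes of the follicle in the list, 6 were tested, 2 rose and 0 fell, where 18.4% of the 141 genes rose and 17.0% fell. Cdh3, the P-cadherin gene of hair germ and basal cells, rose from 1.87 ± 0.764 to 5.04 ± 0.219 per 1000 (log2 difference 1.04, SE 0.31, edgeR adjusted p = 0.0294). Lrig1, a brake on growth factor receptors that marks stem cells above the bulge, rose from 4.44 ± 1.39 to 9.93 ± 3.16 per 1000 (log2 difference 1.03, SE 0.28, edgeR adjusted p = 0.0189). All PITX1+ sections were above all Control sections for both, yet Cdh3 lost its call in 4 and Lrig1 in 2 of 7 fits that left out a section. Sostdc1, an inhibitor of BMP and Wnt, at a log2 difference of -0.41 and Krt79, of the follicle canal, at 0.59 did not pass the test. The median log2 difference of the list was 0.26, against -0.0045 over all 141 genes.

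Of the 10 basal and adhesion genes, all tested, Itgb1 and Lama5 rose and Krt5, Col17a1 and Lama3 fell, where 18.4% of the 141 genes rose and 17.0% fell. Lama5, the laminin chain of follicle basement membrane, was 4.18 ± 0.211 per 1000 in Control and 13.1 ± 2.77 per 1000 in PITX1+ sections (log2 difference 1.39, SE 0.26, edgeR adjusted p = 0.0025). Itgb1, the chain shared by many integrins, had a log2 difference of 1.02 and lost its call in 3 of 7 fits that left out a section. Krt5 was 110 per 1000 in the male and 49.0 and 56.4 in the female Control sections, 70.2 and 81.7 in the male and 22.7 and 28.4 in the female PITX1+ sections, lower within each slide (log2 difference -1.10, SE 0.20, edgeR adjusted p = 0.0024). With the rule applied to thinned cells its log2 difference was -0.19 and the call was lost, while the 26 genes of that fit shifted by a median of 0.78. Lama3, a laminin chain of the hemidesmosome, had a log2 difference of -0.81 and lost its call in 6 of 7 such fits. Trp63 at 0.26 and Col7a1 at -0.56 on the log2 scale did not pass. Among the desmosomal cadherins, 5 of 8 were tested, Dsg2 rose, Dsg3 fell (-1.06, with an adjusted p of 0.169 by edgeR without the male Control section), and Dsc3 and Dsg1a did not pass.

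Of genes of hair growth, 2 of 5 could be tested. Dlx3, a transcription factor of the hair matrix, rose from 0.449, 1.94 and 1.58 per 1000 to between 4.31 and 5.81 per 1000 (log2 difference 1.85, SE 0.45, edgeR adjusted p = 0.0109). Krt75 fell (log2 difference -1.61, SE 0.35, edgeR adjusted p = 0.0059), from 25.4 per 1000 in the male and 8.33 and 10.6 in the female Control sections to 6.17 and 11.8 in the male and 6.13 and 2.61 in the female PITX1+ sections. Without the male Control section its adjusted p was 0.155. Of 10 cell cycle genes, 6 were tested and Hist1h1b alone rose, a share near the 18.4% over all genes tested. Top2a and Prc1, of mitotic chromosomes and the spindle, had log2 differences of 1.45 and 1.68 with all PITX1+ sections above all Control sections, and did not pass.

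BMP, Wnt and immediate early genes gave 1 lower call in each list, near the 17.0% over all genes tested. In the BMP list 5 of 8 genes were tested, and Bmp2 fell while the BMP target Id3 (-0.85) and the receptor gene Bmpr2 (0.018) did not pass. In the Wnt list 6 of 13 were tested, and the receptor gene Fzd1 fell (-1.01) but lost its call in 6 of 7 fits that left out a section, while Lrp6, Lgr6 and Wnt4 did not pass. Of the immediate early genes, 4 of 7 were tested and Klf4 alone fell. Of 14 genes of EGF and IGF signalling, 10 were tested, and 3 of them (18.4% over all genes tested), binding proteins of insulin-like growth factors, rose: Igfbp7 from 3.39 ± 1.48 to 14.03 ± 6.06 per 1000 (log2 difference 1.59, SE 0.25, edgeR adjusted p = 0.0011), Igfbp2 and Igfbp4 (log2 difference 1.13). Igfbp4 lost its call without the first female Control or the second female PITX1+ section (highest edgeR adjusted p = 0.0613). The binding protein gene Igfbp3 (0.59) and the receptor genes Egfr (-0.25) and Igf1r (0.64) did not pass.

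Genes of activated and oral keratinocytes were mostly too sparse in the bulge for a test. In the activation list 3 of 14 were tested, where 18.4% of the 141 genes rose and 17.0% fell, so single calls say little of the list. Slpi rose, Krt6a fell (log2 difference -1.54, SE 0.25, edgeR adjusted p = 0.0011), and Krt17 at 71.1 and 110 per 1000 on average had a log2 difference of 0.41 and did not pass. Krt6a lost its call with the rule applied to thinned cells (log2 difference -0.52), while the 26 genes of that fit shifted by a median of 0.78. Krt6a was 30.4 per 1000 in the male and 6.01 and 4.34 in the female Control sections and 13.5 and 15.4 in the male and 1.82 and 1.90 in the female PITX1+ sections. In the oral list 2 of 9 were tested, Dsg2 rose (18.4% over all genes tested), and Crabp2, a retinoic acid binding protein gene, had a log2 difference of 1.03 and did not pass.

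Markers of neighbouring cell types were summed as well. Among these lists the sebaceous list alone did not overlap between the conditions, and of its genes only Scd2 did not. Of the 141 genes tested, 22.7% had all PITX1+ sections above every Control section. Sums of lists of other kinds also separated. Among them were EGF and IGF genes (36.8 to 46.7 against 65.6 to 72.1 per 1000) and Wnt genes (21.9 to 23.7 against 17.9 to 20.5). Of the 7 fibroblast genes 5 were tested, and the collagen genes Col14a1 (log2 difference 1.08) and Col5a1 (1.603) rose (18.4% over all genes tested), while Col1a1 (0.36) and Col6a1 (0.0037) did not pass. Both lost their calls when sections were left out, Col14a1 in 5 and Col5a1 in 2 of 7 fits, and Col14a1 turned to -0.25 when transcripts of any quality were counted. The 7 genes together made up 19.6 to 24.1 per 1000 in Control and 19.97 to 48.01 per 1000 in PITX1+ sections. The 4 sebaceous genes made up 1.497 to 9.69 and 11.8 to 17.3 per 1000, where Scd2 rose, Elovl6 did not pass at a log2 difference of -0.065, and Cidea and Pparg were not tested. Elovl6 stood at 0.449 to 6.97 and 1.36 to 4.67 per 1000, Cidea at 0 to 0.449 and 0.232 to 2.54, and Pparg at 0 to 1.16 and 0 to 0.630. Scd2 also rose in Krt15 cells without Cd34 (log2 difference 2.73) and in Krt5 cells (2.27). The 4 muscle and pericyte genes made up 0.748 to 3.68 and 3.25 to 5.51 per 1000, the 18 immune genes 2.54 to 14.5 and 1.64 to 5.90 per 1000, the 5 endothelial genes 0.1497 to 2.91 and 1.49 to 2.27 per 1000, and the 3 Schwann genes 0.1497 to 3.68 and 0.390 to 1.82 per 1000. The part of these transcripts in the changes above was not tested.

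The same genes were then compared with other keratinocytes of the same sections. In Krt15 cells without Cd34, Wfdc3 changed by -4.11, Bmp2 by -3.02, Col17a1 by -1.92 and Tgfbi by -2.40 on the log2 scale, and Scd2 by 2.73 and Lbh by 2.00. In that class 85 of 274 genes passed the test (31.0%). In Krt5 cells 50 of 321 passed (15.6%), and Wfdc3 changed by -2.61 and Scd2 by 2.27, while Bmp2 at -0.086 and Postn at -0.36 did not pass. The difference between the changes was tested directly. Against Krt15 cells without Cd34, 0 of 291 genes differed by edgeR, with 19 at an unadjusted p under 0.05, and 0 by DESeq2. Against Krt5 cells, 0 of 301 differed by edgeR, with 59 at an unadjusted p under 0.05, and 11 by DESeq2, Arg1, Bmp2, Krt75, Krt6a and Dsg3 among the 10 in which the bulge changed downward relative to Krt5 cells and Lrig1 the single one upward. No gene therefore passed in the edgeR test as changing differently in the bulge. That fit held the section as a block but no term for a class difference between the slides, which thus stayed in its spread. It does not show that the changes were equal. Leaving out the male Control or the second male PITX1+ section gave 4 genes each against Krt5 cells, and the male Control or the first female Control section 1 gene each against Krt15 cells without Cd34.

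**Figure D4:**
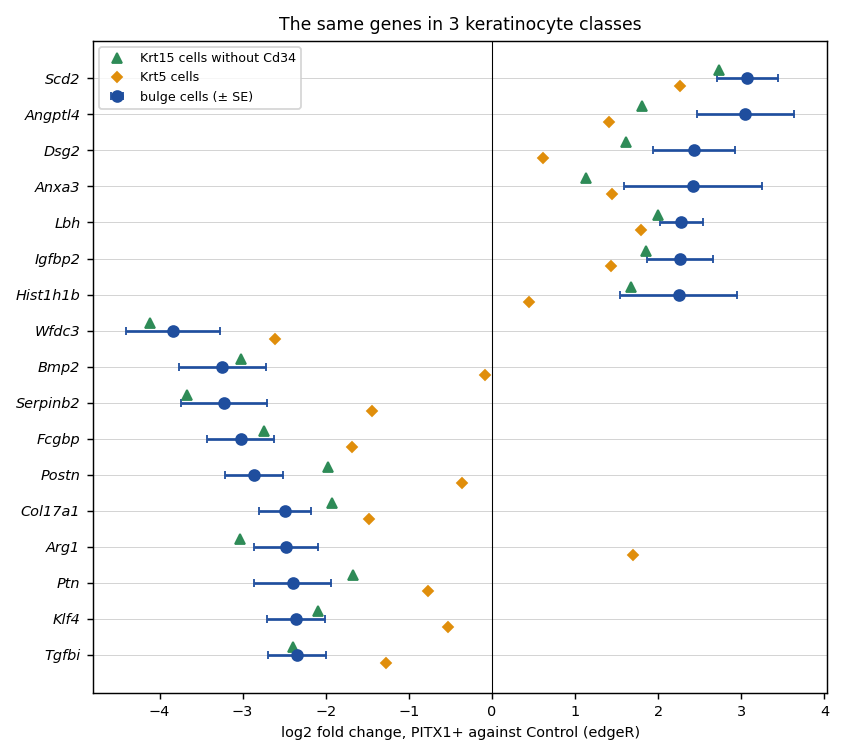
Log2 fold change between PITX1+ and Control sections for the genes that moved most in bulge cells (blue, with the standard error), beside the same genes in Krt15 cells without Cd34 (green) and Krt5 cells (orange). Slpi and Acta2, with at most 1 Control transcript, are left out. The green symbols follow the blue ones for all 17 genes, and the orange symbols of Bmp2 at -0.086, Postn at -0.36 and Arg1 at 1.70 lie furthest from them.

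The surroundings of bulge cells were measured in cells with centres within 30 µm, which are no members of the rule. Immune transcripts made up 12.4, 22.3 and 12.1 per 1000 of their transcripts in Control and 10.5, 7.16, 13.7 and 11.6 per 1000 in PITX1+ sections, a difference of -4.84 per 1000 that was within the spread (exact permutation test, p = 0.229) and came to -1.48 without the first female Control section. In the rest of each section, immune transcripts made up 24.9 to 56.7 per 1000 in Control and 29.9 to 38.9 per 1000 in PITX1+ skin. They were lower around bulge cells in 7 of 7 sections, with a mean difference of -25.2 per 1000 (12.8 ± 4.66 against 38.0 ± 10.2, two-sided exact sign-flip permutation test over sections, p = 0.0156, the smallest that 7 sections allow, adjusted p = 0.0208 over 8 lists). This comparison was chosen after the values had been seen. It sets neighbours of keratinocytes against all other cells of the section, dermis and muscle included. It therefore cannot tell the surroundings of bulge cells from those of other follicle cells. Among neighbours that belonged to neither class, immune transcripts were 0.222 per 1000 higher around bulge cells than around Krt15 cells without Cd34, lower in 4 of 7 sections (exact sign-flip permutation test, p = 0.797).

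Other lists were compared in the same way and with the same limit, so their tests show nothing particular to the bulge. Suprabasal genes were lower around bulge cells in 7 of 7 sections (12.2 ± 15.2 against 74.3 ± 35.7 per 1000), as were fibroblast (51.2 ± 12.7 against 84.4 ± 36.5), muscle and pericyte (3.81 ± 1.09 against 41.5 ± 26.6) and endothelial genes (3.45 ± 1.06 against 6.63 ± 1.49), each with an adjusted p of 0.0208 in the exact permutation test. Neighbours of Krt15 cells without Cd34 that belonged to neither class gave similar values for these lists, except for the suprabasal list. Fibroblast genes made up 31.8 to 79.5, muscle and pericyte genes 2.40 to 6.88 and endothelial genes 2.02 to 5.74 per 1000. Around bulge cells, where Krt15 cells without Cd34 still counted as neighbours, these ranges were 30.3 to 64.8, 2.785 to 5.44 and 2.46 to 5.47. With neighbours of neither class on both sides, fibroblast genes made up 31.4 to 89.0 per 1000 around bulge cells. They were then above the values around that class except in the first female PITX1+ section. No other list of this paragraph was matched in this way. Suprabasal genes made up 5.04 to 137 around that class and 0.795 to 35.2 around bulge cells. Activation genes were higher around bulge cells in 7 of 7 sections (111 ± 43.8 against 74.8 ± 51.0 per 1000, adjusted p = 0.0208 in the exact permutation test). They made up 73.7, 72.7 and 88.8 per 1000 around Control and 130, 79.2, 186 and 145 around PITX1+ bulge cells. The values around Krt15 cells without Cd34 were near these, at 75.3, 75.9 and 82.8, and 127, 64.2, 176 and 143 per 1000. Most of the difference from the rest of the section was Krt17. Without Krt17, a choice made after seeing the data, the list was higher around bulge cells in 5 of 7 sections and lower in both female PITX1+ sections (42.3 against 55.0 and 21.4 against 58.5 per 1000), with means of 24.6 ± 15.8 and 25.4 ± 23.9 per 1000 (exact sign-flip permutation test, p = 0.984). Hair differentiation genes were higher in 6 of 7 (14.96 ± 3.53 against 6.22 ± 5.91, adjusted p = 0.0357 in the exact permutation test). Sebaceous genes were higher in 6 of 7 (20.9 ± 7.88 against 15.03 ± 4.21, adjusted p = 0.0469 in the exact permutation test). Around Krt15 cells without Cd34, sebaceous genes were higher than around bulge cells except in the female Control sections (12.7 and 12.3 against 13.1 and 12.8). In the male Control section they made up 57.6 against 33.6 per 1000. Hair differentiation genes made up 6.12, 3.07 and 3.03 around that class in Control, against 17.4, 8.43 and 13.9 around bulge cells. In PITX1+ sections they made up 9.003 to 22.8 against 12.7 to 18.6. The differences from that class were not tested. Around Control bulge cells the hair differentiation list was mostly Krt75, a companion layer keratin, at 16.8, 6.55 and 12.7 per 1000. Elsewhere in Control Krt75 made up 0.271 to 0.457 per 1000. In PITX1+ skin it made up 5.42 to 7.75 around bulge cells against 1.15 to 3.58 per 1000 elsewhere. The list without Krt75 was not tested. Bmp2 made up 6.503, 2.96 and 3.03 per 1000 around Control and 0.497 to 1.55 per 1000 around PITX1+ bulge cells, while elsewhere it made up 0.296 to 0.550 and 0.513 to 1.25 per 1000.

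**Figure D5:**
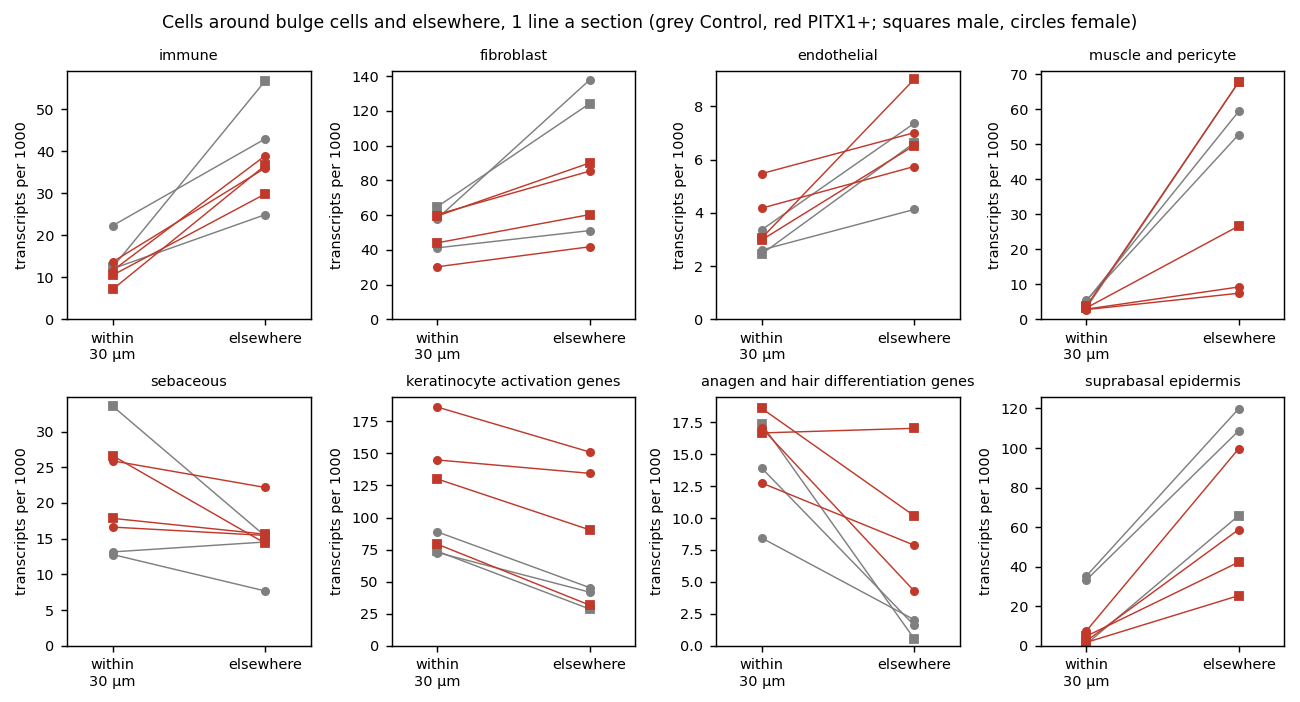
Transcripts of 8 gene lists per 1000 transcripts in cells within 30 µm of a bulge cell and in all other cells of the same section, with 1 line per section (grey Control, red PITX1+, squares male, circles female). Immune, fibroblast, endothelial, muscle and suprabasal lines rise away from the bulge in all 7 sections. Activation lines, mostly Krt17, fall in all 7. The sebaceous and hair differentiation lines fall in 6 of 7, the latter list being mostly Krt75 around Control bulge cells.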

How the data were processed

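The authors deposited the instrument output of 4 Xenium slides without normalization, and no software version is given in the sources used here. Per the file headers, the cells table holds counts of transcripts per cell with positions and areas in µm and µm2, and the deposited transcripts table gives each molecule a quality score, a mark for the nucleus and its cell. Molecules scored 20 or higher for quality were summed per cell, and the sums equalled the deposited counts in 100% of cells. Cells within 100 µm of each other were chained into sections, keeping those of at least 2000 cells, and conditions followed their order along the slide. Bulge cells and both comparison classes were summed per section. The 5 rule genes were left out of tests and library sizes. Doublets were not called. The transcripts of the wound slide were not used.

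Sums were tested by the quasi-likelihood pipeline of edgeR (version 4.0.16, R 4.3.3) after filterByExpr and TMM scaling. The threshold was an adjusted p under 0.05. Tests within a class had the slide in the design. Differences between classes were tested as an interaction with section as block and no class by slide term. DESeq2 1.42.0 was an alternative. Section values were compared by two-sided exact permutation tests (Python 3.11.15, scipy 1.17.1). The scripts were tested on simulated data. The bulge cells of a section held 3120 to 8268 transcripts in Control and 4668 to 73608 in PITX1+ skin, and the smallest sums limit the precision. Intervals cover counting error only. The members, the 20 gene lists and the tests were chosen with earlier results of these data known. Named are the rule genes, Pitx1, the 10 largest changes each way among genes past the threshold (1 of them is not reported here), the most abundant members of each list and the 10 largest ratios to Krt5 cells. Other list members that passed and Krt75 and Bmp2 of the surroundings were named after their values were seen. Alternatives were other scalings, filters, gates, qualities, depths and distances, and each section left out.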

Additional observations from a re-analysis of the deposited data

Results flagged for a closer look

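Bulge cell density changed in opposite directions on the 2 slides. It was 32.0 per mm2 higher in the male PITX1+ sections than in the male Control section (60.8 and 74.3 against 35.5), and fell by 8.58 per mm2 in the female sections (4.32 and 12.3 against 21.4 and 12.3), where 1 section of each condition shared the value of 12.3. With the rule applied to cells thinned to 20 transcripts, density was lower in PITX1+ sections on both slides, at 2.77 and 3.32 against 11.2 per mm2 in males and 0.105 and 0.518 against 6.79 and 4.34 per mm2 in females. The difference between the slides was not tested, and slide and sex cannot be told apart.

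In 2 genes 1 PITX1+ section stood apart from the other 3. The second male PITX1+ section was highest for Serpinb2 (0.570 against 0.213 to 0.238 per 1000, a gap of 0.930 of the range) and for Tgfbi (5.76 against 2.27 to 2.61 per 1000, 0.901 of the range). Both were still below every Control section. Of the 27 measures screened, about 1 in 20 groups of 4 would pass this limit by chance.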

How the results depend on the processing

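The count of 50 genes changed in bulge cells became 17 without the slide covariate, 5 of 26 tested with the rule applied to cells thinned to 20 transcripts, and 5 of 33 with at least 2 Cd34 transcripts, and ranged from 30 (without the second female PITX1+ section) to 47 over the fits that left out a section, with 33 without the first male PITX1+ section. Fewer genes and cells enter the thinned and the Cd34 fits. Of the 50 calls 13 and 19 could be fitted there, all with the same direction, but with the thinned rule 9 of the 13 lost their call. Several sizes shrank (Krt5 from -1.10 to -0.19, Tgfbi from -2.35 to -0.76), and that of Timp3 grew (-0.82 to -1.29). The 26 genes of the thinned fit shifted by a median of 0.78 on the log2 scale, so its sizes are not directly comparable with the main ones. Other counts were 52 without TMM, 54 without the filter, 52 with DESeq2, 42 over the nucleus and 45 to 49 with other qualities, filters and gates. Over single genes, 615 of 802 values kept direction and call, 186 lost the call, and Col14a1 reversed to -0.25 with transcripts of any quality. In every fit that left out a section, 21 of the 50 kept their call.

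The difference against Krt5 cells went from 0 genes to 11 with DESeq2 and 0 to 4 without a section. Against Krt15 cells without Cd34 it went from 0 to 1 with at least 20 transcripts per cell (Lrig1), 1 with the thinned gate (Krt79) and 2 with at least 2 Cd34 transcripts (Krt79 and Tnxb), and 0 to 1 without a section. The share difference of -0.106 points turned to 0.0086 with at least 1 Krt15 transcript and ranged from -0.449 to 0.179 without a section, being 0.179 without the male Control section, 0.147 without the first and 0.107 without the second female PITX1+ section. Density turned to -5.77 per mm2 with the thinned gate. Of 31 values of spatial measures other than the distance to Shh cells under alternatives that kept all sections, 29 kept their direction, and the cause of the changes was not tested.

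Depth limits the gene test, with 14379 transcripts outside the rule genes in 386 Control bulge cells, so 182 of 323 genes could not be tested. A permutation of 3 against 4 sections cannot give a p under 0.0571. No paired analysis was possible because, between Control and PITX1+ sections, each slide is 1 deposited sample and sections carry no replicate numbers that match across conditions. The slide entered the gene test as a covariate. The permutation tests between the conditions did not account for it, so the gap between the slides is part of the spread they measure.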
